A study of Mus musculus with 5 samples.

Results

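Keratins are the intermediate filament proteins of epithelial cells, and their transcripts were followed here in RNA from cells that the labels give as PMN-MDSCs (polymorphonuclear myeloid-derived suppressor cells, neutrophil-lineage cells that restrain T cells) of wild-type mice. The keratin genes were taken as every symbol made of Krt, a number and at most 1 further letter, which leaves out keratin-associated proteins, and this gave 54 of 55250 gene symbols. Of these 54 genes, 28 encode type I and 26 type II keratins. The samples were 3 lung libraries (replicates 1, 2 and 3) and 2 tumor libraries (replicates 2 and 3), named by the organ the sorted cells came from. The sources used here give no age, strain, tumor model or sort markers. Whether different libraries came from different animals is not stated either, and the p-values rest on library-to-library spread, which can be purely technical. Values are TPM (transcript abundances scaled to the same total in each library), which are corrected for transcript length and can be compared between genes, and the depth behind them is unknown.

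A keratin filament is built from pairs of 1 type I (acidic) and 1 type II (basic) protein, and an unpaired keratin is usually degraded. Which pairs a cell makes follows its kind of epithelium. Simple epithelia make Krt8 with Krt18, often with Krt7 and Krt19, the basal layer of stratified epithelia makes Krt5 with Krt14, and wounded or fast-dividing epithelia add the stress keratins Krt6, Krt16 and Krt17. Leukocytes make the intermediate filament protein vimentin instead, and the lung's own keratins belong mainly to its airway and alveolar epithelium.

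The labelled cell type was first set beside its markers. All 10 neutrophil markers and all 10 pan-leukocyte markers were lower in tumor, against 27.0% of all tested genes (limma), and all 8 general epithelial markers were higher, against 31.6%. Ptprc, which encodes CD45 of leukocytes, had lung values of 842, 926 and 959 TPM and tumor values of 18.5 and 75.3 TPM. Summed epithelial markers were at 21.98, 8.24 and 11.1 TPM in lung and at 1008 and 1027 TPM in tumor. Tumor values therefore come from libraries with low leukocyte and high epithelial transcripts, and in such bulk samples fewer cells of a type and less RNA per cell cannot be told apart. Summed airway and alveolar markers were at 1026 TPM in lung replicate 1, against 237 and 201 TPM in lung replicates 2 and 3 and 26.4 and 26.2 TPM in tumor. Of the 12 that were tested 9 fell and 1, Foxj1, rose. Sftpd was also higher in both tumor libraries but did not pass (limma adjusted p = 0.0705). Hopx, Sftpd and Foxj1 held nearly all of the tumor sums. Of 6 fibroblast markers 5 were higher in tumor, and their sum was 20.2, 21.3 and 14.7 TPM in lung and, unevenly, 1193 and 216 TPM in tumor replicates 2 and 3. The sum of 5 mesothelial markers was 6.26, 4.29 and 1.67 TPM in the lung libraries and 428 and 388 TPM in the tumor libraries. Msln, the 1 of them that could be tested, held nearly all of the tumor sums, at 428 and 387 TPM. Each of the others went the other way, lower in both tumor libraries than in every lung library and under 1 TPM throughout. The part that any of these cell types plays in the keratin values was not tested.

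Summed over all 54 genes, keratin transcripts were at 262, 169 and 191 TPM in lung and at 5856 and 5899 TPM in tumor, a 28.3-fold difference of the means. They made up 0.0262%, 0.0169% and 0.0191% of the lung transcripts and 0.586% and 0.590% of the tumor transcripts. The set of genes behind these sums was small. The 8 keratins Krt24, Krt28, Krt33b, Krt34, Krt40, Krt71, Krt72 and Krt82 were listed at 0 in every library, and another 25 stayed under 1 TPM everywhere. Only 21 of the 54 reached 1 TPM in any library, and 17 had the mean of at least 1 TPM needed for the test.

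Of these 17 tested keratins 10 rose and 4 fell in tumor (limma on log2(TPM + 1), adjusted p under 0.05 and at least 1.5-fold), with a median difference of 1.62. Over all 16387 tested genes 31.6% rose and 27.0% fell (58.6% either way), and the median difference was 0.02. The filter on the mean lets in genes that are high in only 1 group, so these 17 do not stand for all keratins. Tumor and lung values did not overlap for 15 of the 17 (11 higher, 4 lower), and the same held for 75.6% of all tested genes (39.9% higher, 35.7% lower). The risers were of both types, 6 type I (Krt14, Krt16, Krt17, Krt18, Krt19, Krt42) and 4 type II (Krt4, Krt6a, Krt7, Krt8). All 4 that fell, Krt79, Krt80, Krt83 and Krt86, were type II. The falls are relative to all transcripts of a library. Centring on 10 pan-leukocyte genes was a scaling chosen after the data were seen, and it gave a median over all genes of 3.09 in place of 0.02. After it 13 of the 17 keratins were called higher and 0 lower (limma, also 0 lower at an unadjusted p under 0.05). Most genes were called higher under that centring, 12559 of all 16387, and 147 were called lower (limma), so these keratin counts follow the shift of all genes. In the authors' deposited table, 1 of the 46 keratins with a p-value, Krt17, had an adjusted p under 0.05 (adjusted p = 0.0400), and that table gives Krt14 an adjusted p of 0.0912. Over all symbols of the authors' deposited table, 223 of 34956 (0.638%) had an adjusted p under 0.05.

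**Figure D1:**
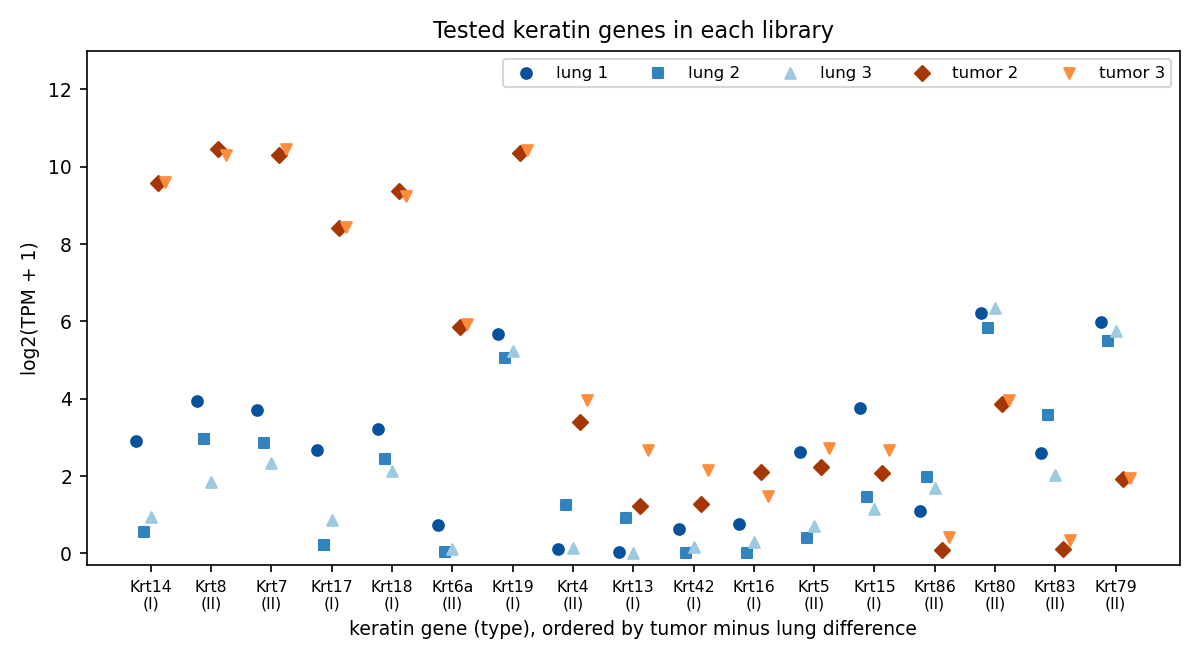
Level of the 17 tested keratins as log2(TPM + 1), 1 point per library, with the gene and its type on the horizontal axis ordered from the largest rise to the largest fall. Both tumor libraries sit above the 3 lung libraries for the first 11 genes and below them for Krt86, Krt80, Krt83 and Krt79, and lung replicate 1 is the highest lung library for Krt14, Krt8, Krt7, Krt17 and Krt18.

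The genomic arrangement of the family gives these results a frame. In GRCm38 (GENCODE M21), 27 type I keratins lie on chromosome 11 between 99232761 and 100269871, and the 26 type II keratins lie on chromosome 15 between 101347444 and 102004482. Krt18 is the exception, a type I gene on chromosome 15 from 102028180 to 102032027, next to its partner Krt8 (101996698 to 102004482). On chromosome 11 all 7 tested keratins fell within the last 8 genes, from Krt13 to Krt42 (100117327 to 100269871, 152.5 kb), with Krt9 as the untested gene among them. The 19 genes before Krt13 held no value above 1.70 TPM. On chromosome 15 the tested genes were spread over the whole cluster, with Krt80 and Krt7 at its start, Krt83 and Krt86 among the hair keratins, Krt6a and Krt5 in the middle, and Krt4, Krt79, Krt8 and Krt18 at its end. Direct neighbours moved in opposite directions there. Krt80 (101347444 to 101370162, minus strand) fell and Krt7 (101411043 to 101430313, plus strand) rose, and Krt4 (101918535 to 101924735) rose beside Krt79 (101929332 to 101940324), which fell.

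**Figure D2:**
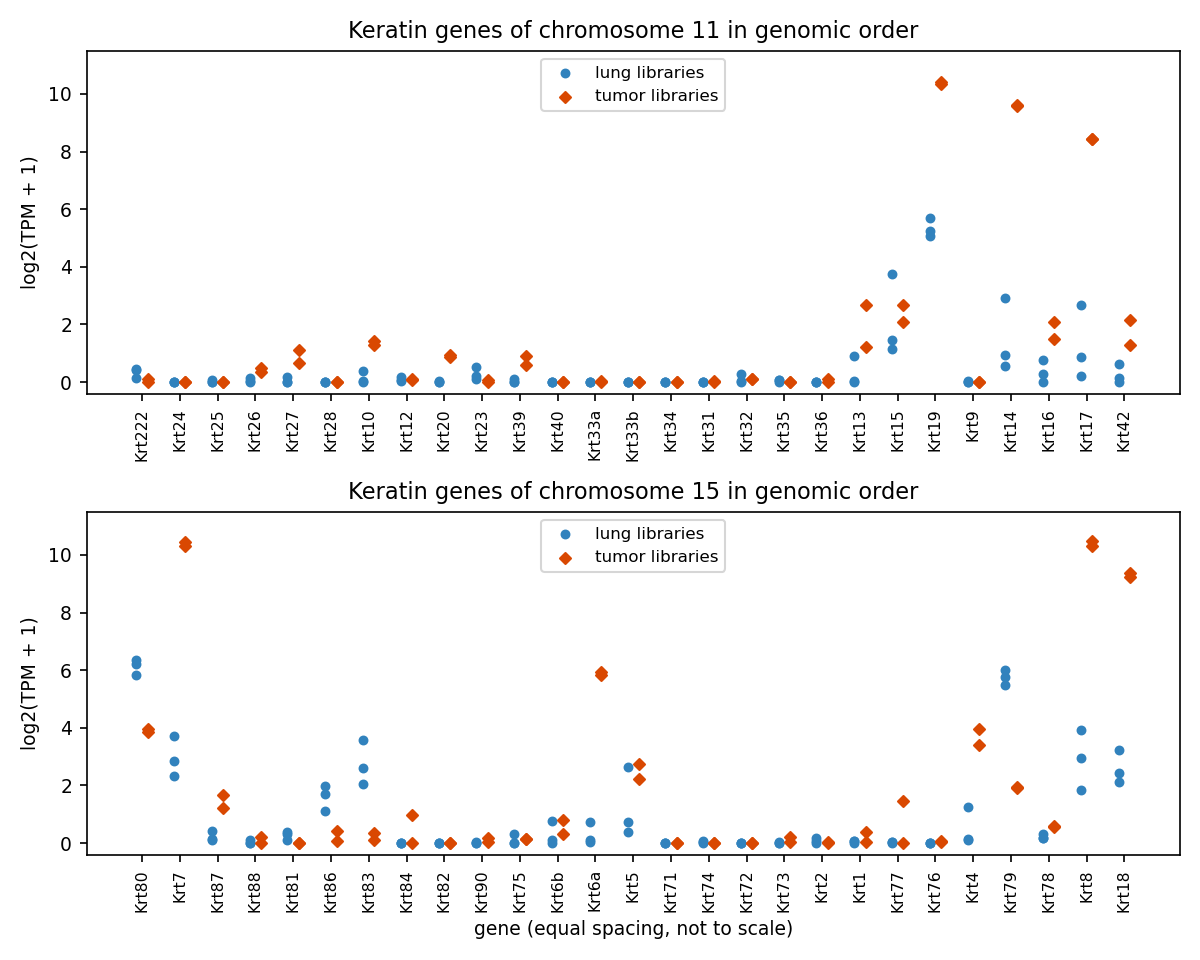
Level of every keratin as log2(TPM + 1) in genomic order along chromosome 11 (top) and chromosome 15 (bottom), with circles for lung and diamonds for tumor libraries and genes spaced evenly rather than to scale. On chromosome 11 the 7 tested genes stand in the last 8 places, and on chromosome 15 genes that are high in tumor stand beside genes that are high in lung.

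The upstream sequences of members that rose, fell or were listed at 0 are shown to let the letters be compared. Sequences were from RefSeq (GRCm38.p6), and 35 of the 54 keratins had a start within 150 bases of a coding GENCODE start. Each line gives the 100 bases just upstream of the more upstream of the 2 annotated starts, 5′ to 3′ in the gene's direction, and capitals mark motif matches on either strand. The motif TATAAA is the TATA box. The motif GGGCGG is a GC box. The motif TGANTCA is the site of AP-1 factors. The motif GAGGAA is a core bound by ETS factors. No match overlaps another in the sequences shown.
Krt7, which rose, plus strand, chr15:101412302-101412401: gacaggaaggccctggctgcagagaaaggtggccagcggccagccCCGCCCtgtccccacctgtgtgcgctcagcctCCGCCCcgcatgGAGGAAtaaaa
Krt8, which rose, minus strand, chr15:102004483-102004582: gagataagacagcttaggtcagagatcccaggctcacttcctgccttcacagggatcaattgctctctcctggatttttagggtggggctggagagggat
Krt18, which rose, plus strand, chr15:102028080-102028179: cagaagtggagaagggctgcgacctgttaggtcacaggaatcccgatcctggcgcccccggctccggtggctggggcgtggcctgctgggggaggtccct
Krt5, the basal type II keratin that did not pass, minus strand, chr15:101712906-101713005: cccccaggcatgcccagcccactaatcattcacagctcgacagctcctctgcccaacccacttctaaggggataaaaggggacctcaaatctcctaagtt
Krt79, which fell, minus strand, chr15:101940325-101940424: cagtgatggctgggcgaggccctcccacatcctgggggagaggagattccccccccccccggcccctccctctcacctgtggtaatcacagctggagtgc
Krt28, an inner root sheath keratin listed at 0, minus strand, chr11:99374904-99375003: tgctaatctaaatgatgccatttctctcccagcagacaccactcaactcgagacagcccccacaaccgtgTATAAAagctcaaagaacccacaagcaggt

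Within the 250 bases upstream of the RefSeq start, G and C made up 50.4% to 66.0% (median 58.0%) in the 7 tested keratins with such a sequence. For Krt8 this window includes transcribed bases, as its coding GENCODE start lies 140 bases upstream of the RefSeq start. In 25 of the 33 keratins under 1 TPM in every library, those with such a sequence, G and C made up 36.8% to 58.8% (median 45.2%). TATAAA was found in none of those 7 and in 15 of those 25, and in 12.4% of all 32851 promoters. Among those 7, GGGCGG was found in Krt7 alone, at 4 places, and 32.7% of all promoters held it. TGANTCA was found in Krt13 alone among the 7 (6.75% of all promoters), and GAGGAA in Krt7 and Krt13 (23.3%). The 7 were Krt5, Krt7, Krt8, Krt13, Krt18, Krt42 and Krt79, and Krt14, Krt17, Krt19, Krt6a and Krt80 were among the tested keratins without such a sequence. Only exact letters were counted, so a near run such as gataaa in the Krt5 line above was not. A match is a run of letters and not a shown binding site.

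Simple-epithelial keratins rose most in absolute level. The sum of the 5 genes was 85.1, 49.8 and 46.8 TPM in the lung libraries and 4650.3 and 4648 TPM in the tumor libraries, and all 4 that were tested rose. Krt8, the type II keratin of simple epithelia, was at 14.3, 6.75 and 2.57 TPM in lung and at 1416 and 1268 TPM in tumor, and its difference was 7.48 ± 0.62 (log2 ± SE, limma adjusted p = 0.0013). Krt18, its type I partner, was at 8.36, 4.43 and 3.36 TPM in lung and at 658 and 606 TPM in tumor (6.71 ± 0.35, limma adjusted p = 0.000901). The groups were far apart for both genes, and lung replicate 1 was the highest lung library for each. Krt7, a type II keratin of ducts and glands, was at 12.1, 6.27 and 4.03 TPM in lung and at 1264 and 1401 TPM in tumor (7.41 ± 0.42, limma adjusted p = 0.000901). Krt19, the smallest type I keratin, was the most abundant simple keratin of the lung libraries, at 50.3, 32.3 and 36.8 TPM, and reached 1311 and 1372 TPM in tumor. Its difference of 5.07 ± 0.23 (limma adjusted p = 0.000901), a 33.7-fold ratio of means, was smaller than those of Krt7 and Krt8, with a higher lung level and a tumor level close to theirs. Krt20, a keratin of gut and bladder lining, stayed under 1 TPM, listed at 0, 0.0307 and 0 TPM in lung and at 0.905 and 0.817 TPM in tumor. In rank order of all symbols, Krt8, Krt7 and Krt19 stood at 63, 82 and 72 in tumor replicate 2 and at 69, 58 and 62 in tumor replicate 3.

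Basal keratins split. Krt14, the type I keratin of basal cells, was at 6.52, 0.473 and 0.922 TPM in lung and at 762 and 778 TPM in tumor, the largest difference among the tested keratins (8.12 ± 0.74, limma adjusted p = 0.00149). Krt5, the type II protein with which it is usually paired, was at 5.21, 0.318 and 0.645 TPM in lung and at 3.71 and 5.63 TPM in tumor. The Krt5 groups overlapped through lung replicate 1, and the difference of 1.23 ± 0.74 did not pass (limma adjusted p = 0.204). Without lung replicate 1 it passed as higher (1.92, limma adjusted p = 0.0144). Krt15, another type I keratin of basal cells, was at 12.50, 1.76 and 1.20 TPM in lung and at 3.23 and 5.34 TPM in tumor, with lung replicate 1 above and the other lung libraries below both tumor libraries (0.25 ± 0.86, limma adjusted p = 0.811). Its sign turned without lung replicate 2 (-0.07), lung replicate 3 (-0.24) or tumor replicate 3 (-0.04). In lung replicate 1 the 3 basal keratins summed to 24.2 TPM, against 2.55 and 2.77 TPM in the other lung libraries, and that library also held the highest airway marker sum. Trp63, the transcription factor gene of basal cells, stayed under 1 TPM throughout, at 0.457, 0.151 and 0.0910 TPM in lung and 0.786 and 0.666 TPM in tumor.

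All 3 tested stress keratins rose, against 31.6% of all tested genes. Krt6a and Krt16 were under 1 TPM in every lung library and passed the filter on the mean through their tumor values. Krt17, a type I keratin induced in injured and dividing epithelia, was at 5.38, 0.158 and 0.826 TPM in lung and at 342 and 347 TPM in tumor (7.18 ± 0.75, limma adjusted p = 0.00181). Krt6a, a type II stress keratin, was at 0.674, 0.0254 and 0.0862 TPM in lung and at 56.5 and 60.2 TPM in tumor (5.59 ± 0.28, limma adjusted p = 0.000901). Both tumor libraries lay close together and far above every lung library for these genes. Krt16, the type I keratin that usually accompanies Krt6, was low throughout, at 0.696, 0 and 0.216 TPM in lung and 3.26 and 1.80 TPM in tumor. It passed with a small difference (1.44 ± 0.39, limma adjusted p = 0.0273) that did not pass without lung replicate 2 or 3 (limma adjusted p = 0.0646 and 0.0664), with smaller pseudocounts (limma adjusted p = 0.054 and 0.11) or with the replicate block (limma adjusted p = 0.0599). Krt6b, the near copy of Krt6a, was not tested and was at 0.703, 0 and 0.0648 TPM in lung and 0.233 and 0.742 TPM in tumor. Reads are divided among such copies by a model. Of the 31-base words in the annotated transcripts, 51.3% in Krt6a and 57.0% in Krt6b also occur in another gene, most of all in each other. For Krt16 the share was 51.9%, most of all with Gm11597 (32.2%), and 17.6% of the Krt14 words occur in Krt16. The division of reads between Krt6a and Krt6b is therefore uncertain, as is that between Krt16 and the genes it shares words with. The shares were 32.3% in Krt8, nearly all of it with the pseudogene Krt8-ps, which was at no more than 0.462 TPM, 28.2% in Krt14 and 15.8% in Krt17, while Krt7, Krt19, Krt79 and Krt80 shared 2.11%, 0.439%, 0.252% and 0.878%.

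Keratins of moist stratified lining were low, and 1 of the 2 tested rose. Krt4, the type II keratin of oral and esophageal lining, was at 0.0719, 1.37 and 0.0953 TPM in lung and at 9.51 and 14.5 TPM in tumor (3.18 ± 0.46, limma adjusted p = 0.00385). Krt13, its type I partner, was at 0.0321, 0.881 and 0 TPM in lung and at 1.32 and 5.35 TPM in tumor, a difference that just missed the threshold (1.62 ± 0.58, limma adjusted p = 0.0602). Lung replicate 2 was the highest lung library and tumor replicate 3 the higher tumor library for both partners. The Krt13 difference passed without tumor replicate 2 (limma adjusted p = 0.0407) and under quantile normalization (limma adjusted p = 0.0394). Krt42, a type I keratin related to Krt17, was at 0.555, 0 and 0.110 TPM in lung and 1.42 and 3.46 TPM in tumor (1.45 ± 0.43, limma adjusted p = 0.0341). It no longer passed without lung replicate 2 or 3, with the replicate block or at a pseudocount of 0.01 (limma adjusted p = 0.0534 to 0.0859).

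Suprabasal, inner root sheath and companion layer keratins had no tested member. Krt10, the type I keratin of the upper epidermis, was the most abundant of those on chromosome 11, at 0.293, 0 and 0.0243 TPM in lung and 1.44 and 1.70 TPM in tumor. Krt77, a type II epidermal keratin, was listed at 0 in tumor replicate 2 and at 1.74 TPM in tumor replicate 3, with lung values of 0.0337, 0 and 0.0167 TPM. Krt27, of the inner root sheath, was at 0, 0 and 0.138 TPM in lung and at 1.14 and 0.602 TPM in tumor. Such values lie near the bottom of the scale and give only presence in some libraries. Among other genes of differentiated epidermis, 4 of 5 tested members of a cornified envelope list rose, against 31.6% of all tested genes, and the other 10 of its 15 members were too low to test. Of those untested, Tgm3, Flg and Ivl were lower in both tumor libraries than in every lung library, and Cdsn, Sprr1b and Dsg1a were higher. Tgm3 was at 1.14, 1.58 and 0.970 TPM in lung and at 0 and 0.0265 TPM in tumor. The risers Sprr1a, Lor and Sprr2a3 were under 1 TPM in every lung library and passed the filter on the mean through tumor. Sprr1a, which encodes a small proline-rich component, had lung values of 0.324, 0.0926 and 0 TPM and tumor values of 27.3 and 24.4 TPM, and Lor, which encodes loricrin, was at 0.0295, 0.236 and 0.0293 TPM in lung and 3.97 and 2.86 TPM in tumor. Sprr2a3 and Tgm1 were the others that rose, and Krtdap did not pass.

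Against this, the most abundant keratins of the lung libraries were Krt79 and Krt80, and both were lower in tumor. Krt80, a type II keratin found in many epithelia, was at 73.1, 55.6 and 80.3 TPM in lung and at 13.6 and 14.7 TPM in tumor, 4.92-fold lower (-2.21 ± 0.21, limma adjusted p = 0.00156). Krt79, a type II keratin of the upper hair follicle and gland ducts, was at 62.8, 43.7 and 53.0 TPM in lung and at 2.78 and 2.88 TPM in tumor, 18.8-fold lower (-3.81 ± 0.20, limma adjusted p = 0.000901). The 3 lung libraries lay close together for both genes and did not overlap with tumor. Together they made up 51.9%, 58.7% and 69.6% of the keratin transcripts of lung replicates 1, 2 and 3 and 0.280% and 0.298% of those in tumor. Under centring on pan-leukocyte genes the Krt79 difference was -0.74 (limma adjusted p = 0.329) and that of Krt80 changed sign to 0.86 (limma adjusted p = 0.227). The centring genes themselves differ between the tumor libraries (Ptprc at 18.5 and 75.3 TPM), so this scaling shifts all genes alike between these. Its p-values should be read with caution, as it gave Krt14 a limma adjusted p of 6.9e-54 from 5 libraries.

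Values of other genes that moved with Krt79 and Krt80 were set beside them. Relative to Ptprc, per 1000 TPM of it, Krt79 was at 74.6, 47.1 and 55.2 TPM in lung and at 151 and 38.2 TPM in tumor, with tumor values on both sides of the lung values. Krt80 on that scale was at 86.9, 60.1 and 83.8 TPM in lung and higher in tumor, at 737 and 195 TPM. Between the tumor libraries, Ptprc was 4.07 times and S100a8, a neutrophil alarmin gene, 4.03 times as high in replicate 3 as in replicate 2. Krt79 and Krt80 differed there by factors of 1.03 and 1.08 only, as did Krt7, Krt8, Krt14, Krt17, Krt18 and Krt19, with factors from 0.896 to 1.11. In lung, the airway and alveolar marker sum was 1026 TPM in replicate 1 and 237 and 201 TPM in the others. Among lung libraries Krt79 was highest in replicate 1, as were Krt5, Krt6a, Krt7, Krt8, Krt14, Krt15, Krt16, Krt17, Krt18, Krt19 and Krt42. Krt80 was highest in lung replicate 3. All 5 endothelial markers were lower in tumor, and their sum was 194, 107 and 147 TPM in lung and 16.2 and 27.7 TPM in tumor. Which cells of the lung samples carry Krt79 and Krt80 was not tested.

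The other keratins that fell were hair shaft keratins at low level. Krt83 was at 5.03, 11.01 and 3.09 TPM in lung and at 0.0837 and 0.271 TPM in tumor (-2.51 ± 0.50, limma adjusted p = 0.0103). Krt86 was at 1.15, 2.95 and 2.23 TPM in lung and at 0.0561 and 0.339 TPM in tumor (-1.34 ± 0.38, limma adjusted p = 0.0304). Lung replicate 2 was the highest for both, and neither call held without tumor replicate 2 (limma adjusted p = 0.0845 and 0.122), without tumor replicate 3 (limma adjusted p = 0.0582 and 0.064) or with the replicate block (limma adjusted p = 0.0603 and 0.0503). The Krt86 call was also lost without lung replicate 3, with no filter and under quantile normalization (limma adjusted p = 0.0522 to 0.0859). Under pan-leukocyte centring both changed sign, to 0.56 and 1.73. Of their 31-base words 37.4% and 49.97% occur in other genes, most of all in Krt86 for Krt83 and in Krt81 for Krt86, so their division is uncertain. Krt87, another type II hair keratin, was at 0.0677, 0.104 and 0.334 TPM in lung and 1.32 and 2.21 TPM in tumor. It was under the limit for the test, and 52.4% of its words are shared.

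**Figure D3:**
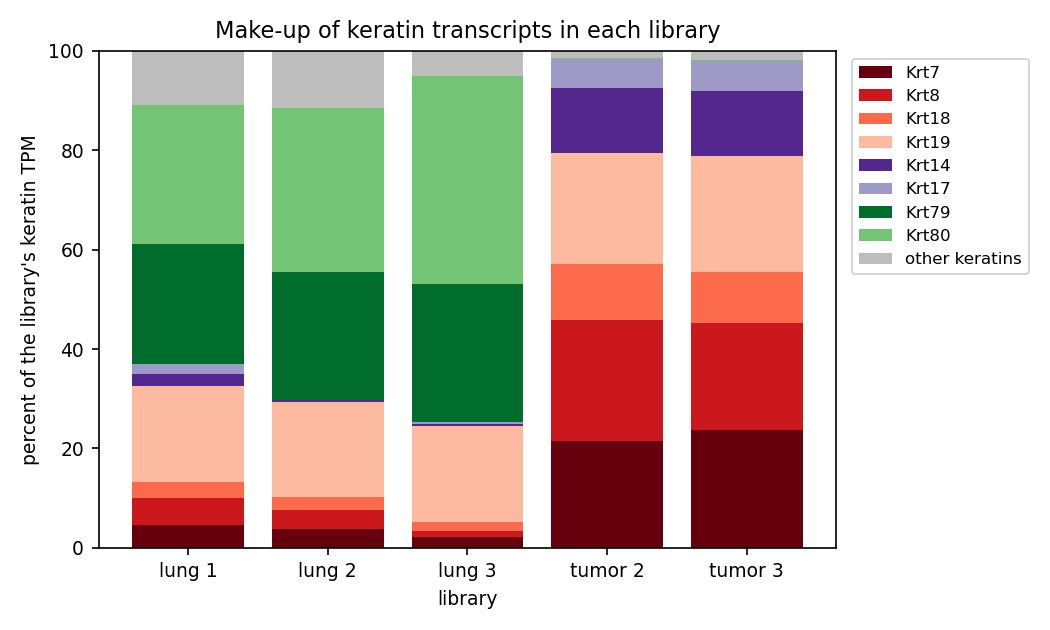
Percent of each library's summed keratin TPM held by 8 named keratins and by all others, as stacked bars from 0 to 100%, 1 bar per library. Krt79 and Krt80 (green) hold 51.9% to 69.6% in lung, and Krt7, Krt8, Krt18, Krt19, Krt14 and Krt17 hold 98.3% and 97.9% in tumor.

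Since type I and type II proteins pair in equal numbers, the transcript balance was described for each library. Type I transcripts summed to 85.7, 40.7 and 44.2 TPM in lung and 3087 and 3124 TPM in tumor, and type II transcripts to 176, 128 and 147 TPM in lung and 2769 and 2775 TPM in tumor. The type II to type I ratio was 2.06, 3.16 and 3.33 in lung and 0.897 and 0.888 in tumor. Transcripts of both types were thus near balance in tumor, while type II was in excess in lung. The lung excess lay with the keratins that were lower in tumor. Without Krt79, Krt80, Krt83 and Krt86 the lung ratio was 0.396, 0.374 and 0.193, and that of tumor was 0.891 and 0.882. After Krt19, the highest type I value in lung was that of Krt15 in replicate 1, at 12.50 TPM.

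Balance within the classic pairs was uneven. Krt8 was at 1.72, 1.52 and 0.765 times Krt18 in lung and at 2.15 and 2.09 times in tumor. Krt7 was at 0.240, 0.194 and 0.110 times Krt19 in lung and at 0.964 and 1.02 times in tumor. The Krt5 to Krt14 ratio was 0.799, 0.672 and 0.6996 in lung, where both genes were low, and 0.00486 and 0.00724 in tumor. Tumor libraries thus held Krt14 at a level above that of Krt18 with almost no Krt5. Taking basal and stress keratins together, Krt5, Krt6a and Krt6b summed to 0.523, 0.544 and 0.405 of Krt14, Krt16 and Krt17 in lung and to 0.0546 and 0.0590 in tumor. Krt7 and Krt8 summed to 0.872 and 0.860 of Krt14, Krt17, Krt18 and Krt19 in tumor, and to 0.375, 0.348 and 0.158 in lung. In tumor, type II keratins of simple epithelia were therefore the only ones at a level near that of the type I transcripts. Protein pairing was not measured.

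**Figure D4:**
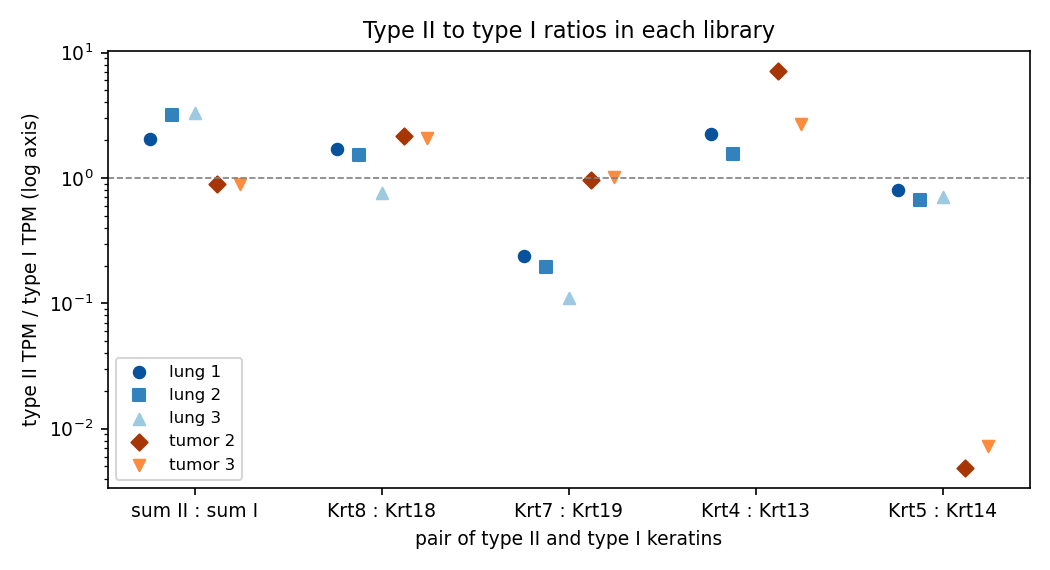
Ratio of type II to type I TPM in each library on a log axis, for the sums and for 4 classic pairs, with 1 point per library and a dashed line at a ratio of 1 (lung replicate 3 has no Krt4 to Krt13 point because Krt13 is listed at 0). The tumor points lie near 1 for the sums and for Krt7 with Krt19, near 2.1 for Krt8 with Krt18, and at 0.00486 and 0.00724 for Krt5 with Krt14.

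Relative to Epcam, the gene of an adhesion protein of most epithelia, the mix of keratins also differed. Krt19 was at 9.25, 15.3 and 12.47 times Epcam in lung and at 5.11 and 5.52 times in tumor. Krt14 went the other way, at 1.20, 0.225 and 0.313 times Epcam in lung and 2.97 and 3.13 times in tumor. Krt8 was at 2.64, 3.21 and 0.873 times Epcam in lung and at 5.52 and 5.10 times in tumor. The groups did not overlap for these 3 ratios, nor for those of Krt6a, Krt7, Krt17 and Krt18 to Epcam, and only that of Krt19 was lower in tumor. In TPM itself, the groups did not overlap for 75.6% of all tested genes, and no such share was worked out for ratios to Epcam. Epcam was itself higher in tumor (72.2-fold ratio of means), and the keratins set against it were all among those called higher. Lung values of Epcam were only 5.44, 2.10 and 2.95 TPM, which limits the precision of the lung ratios.

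Genes that hold or surround keratin filaments were read from lists kept beside the keratins. As for the keratins, the filter on the mean lets in list members that are high in only 1 group. Of 17 tested genes that link keratin filaments to desmosomes and hemidesmosomes, 16 rose and Col17a1 did not pass, with a median of 3.62, against 31.6% and 0.02 over all tested genes. Of the risers, Dsp, Pkp1, Pkp2, Ppl, Evpl, Dsg2, Dsg3 and Dsc2 were under 1 TPM in every lung library. These passed the filter through their tumor values, which limits what the count and median show. Pkp1, a desmosomal plaque protein that binds keratins, was at 0.136, 0.0233 and 0 TPM in lung and at 36.0 and 34.9 TPM in tumor (5.12 ± 0.19, limma adjusted p = 0.000901). Itga6, the integrin subunit of hemidesmosomes, was at 14.8, 11.7 and 10.8 TPM in lung and at 352 and 298 TPM in tumor. The cytolinkers Ppl and Evpl rose from at most 0.696 and 0.545 TPM in lung to 21.3 and 24.3 TPM, and to 18.4 and 21.8 TPM, in tumor. Dsp, which encodes desmoplakin, was at 0.872, 0.561 and 0.287 TPM in lung and at 25.6 and 32.1 TPM in tumor. Plec, which encodes the broadly expressed linker plectin, moved less, from 22.5, 27.0 and 30.9 TPM to 73.7 and 61.7 TPM (1.31 ± 0.20, limma adjusted p = 0.00441).

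Other intermediate filament genes were listed beside the keratins. Vim, which encodes the vimentin of leukocytes and mesenchymal cells, was at 1747, 2189 and 1672 TPM in lung and 3703 and 2147 TPM in tumor, with overlapping groups (0.60 ± 0.29, limma adjusted p = 0.135). Vim was thus more abundant than any single keratin in every library. Of the 6 tested genes among 16 in the list 4 rose (Nes, Nefl, Lmna, Lmnb2) and 1 fell (Lmnb1), with a median of 1.59, where 31.6% of all tested genes rose and 27.0% fell. The nuclear lamins moved in opposite directions, with Lmna at 51.5, 50.6 and 55.5 TPM in lung and 504 and 360.0 TPM in tumor (2.996 ± 0.19, limma adjusted p = 0.00101), and Lmnb1 at 286, 392 and 361 TPM in lung and 35.5 and 59.8 TPM in tumor (-2.87 ± 0.28, limma adjusted p = 0.00166).

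Among transcription factors known to act on keratin genes, 7 of 11 tested rose and 2 fell, with a median of 2.25, against 31.6% and 27.0% of all tested genes and their median of 0.02. Of the risers, Sox9, Tfap2a and Grhl2 were under 1 TPM in every lung library and passed the filter on the mean through tumor. Sox9 was at 0.432, 0.239 and 0.174 TPM in lung and 39.6 and 30.2 TPM in tumor (4.80 ± 0.23, limma adjusted p = 0.000901). Elf3, a factor of epithelial differentiation that is also among the general epithelial markers, went from at most 1.77 TPM in lung to 41.6 and 53.3 TPM, Tfap2a from at most 0.277 TPM to 22.9 and 13.9 TPM, and Klf5 from at most 5.80 TPM to 28.0 and 25.3 TPM. Grhl2, Sox2 and Ehf were the other risers, and Cebpa and Nfe2l2 were those that fell. Of 10 tested keratin-binding and turnover genes 6 rose, with a median of 0.76, against 31.6% and 0.02 over all tested genes. Fam83h, whose protein organises keratin filaments, was at 0.400, 0.132 and 0.232 TPM in lung and at 9.995 and 11.98 TPM in tumor (3.26 ± 0.24, limma adjusted p = 0.00116). Stub1, a ubiquitin ligase, and Krtcap2 and Krtcap3, which are not keratins despite their names, rose by smaller amounts (1.50, 2.03 and 2.09).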

How the data were processed

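The deposited TPM values were made by the authors with Salmon 0.9.1 and GENCODE M24 mouse transcripts, as the series' design text states, and sum to 1000000 in each library. Depth is not kept, so no counting error could be given. The deposited p-values (adjusted p-values) are the authors' own and were used for description only. Of 55276 rows, 26 with spreadsheet dates for symbols were left out (0.0650% to 0.0826% of TPM).

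The treatment label, which holds the organ, gave the groups, and titles gave the replicate numbers. Tumor and lung were compared with limma 3.58.1 (R 4.3.3), with intensity trend and two-sided tests, on log2(TPM + 1) of all 5 libraries for the 16387 genes whose mean reached 1 TPM. A call was an adjusted p (Benjamini-Hochberg, over all of these) under 0.05 with at least 1.5-fold, and the fit was tested on simulated data. Sums, ratios and shares were described without a test. Members and lists were chosen with earlier results of these data known. Keratins reaching 1 TPM in any library are named, with Krt20 and Krt6b and members completing a count added after their values were seen, as were the Epcam and Ptprc ratios. From the lists of filament, junction, binding, transcription factor and envelope genes the 4 genes with the smallest p and a few set genes are named, and marker lists are given by counts and sums. Untested envelope genes whose groups did not overlap, and list members under 1 TPM in every lung library, were named after their values were seen. Positions are from GENCODE M21, matched by symbol for all 54 keratins. Alternatives covered pseudocount, filter, scaling, variance model, fold limit, the replicate block and leaving out each library.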

Additional observations from a re-analysis of the deposited data

How the results depend on the processing

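Over 18 other settings, the 17 tested keratins kept direction and call in 270 of 295 gene and setting pairs. Of the 17, 10 did so in every one of these. The settings with no fold limit and with a 2-fold limit reuse the main fit and could not change a keratin call. Every called keratin differed by more than 2-fold there, and the others failed on adjusted p. The number of keratins called lower, 4, was 2 with a filter of 5 TPM, under which Krt83 and Krt86 were not tested. It was 2 with the replicate block, 3 of 46 with no filter, 3 under quantile normalization and 3 to 4 without single lung libraries. No keratin count is given without a tumor library, as 1 library is then left in that group. The calls of Krt83 and Krt86 were lost there, as described above. After pan-leukocyte centring, which was chosen after seeing the data and is not among the 18, the number called lower was 0. The number called higher, 10, was 8 to 11 without single lung libraries and 15 of 46 with no filter. With no filter, 5067 of all 34930 genes were called higher and 4331 lower. Over all genes, 5178 higher and 4431 lower became 12559 and 147 after pan-leukocyte centring, and 3314 to 4817 and 2900 to 4134 without single libraries. The values that changed sign were those of Krt80 (0.86), Krt83 (0.56) and Krt86 (1.73) after that centring, and of Krt15 (-0.24 to 1.07) without single libraries. Leaving out mitochondrially encoded genes raised the mean tumor keratin sum from 5878 to 6698 TPM and gave a median over all genes of 0.13, where median centring gave -0.18. The titles share numbers 2 and 3, and the deviations of same-numbered libraries correlated at 0.0034 and 0.083. With 2 tumor libraries these deviations mirror each other, so whether the numbers pair the libraries could not be determined. The block leaves lung replicate 1 without a partner. It gave Krt5 the value it has without that library, 1.92 (limma adjusted p = 0.0311).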
